A study of Mus musculus with 3 samples.

Results

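The genes described here are those of the IL-6 and LIF cytokines, their receptor chains and their main signalling step: the ligand genes Il6, Lif, Il11 and Clcf1, the receptor chain genes Il6st, Lifr, Osmr and Il11ra1, the transcription factor gene Stat3 and the feedback inhibitor gene Socs3. They were chosen by name. Of these 10 genes, 9 had a probe set that the platform annotation gives to them alone, out of 18194 genes named in this way, with 24 probe sets in all. Il11ra1 had none and was not analysed here. The cells were CT26.WT, a mouse colon carcinoma cell line. One culture received recombinant mouse S100a8 protein and another recombinant mouse S100a9 protein, each at 4 µg/ml for 24 h after 12 h in serum-free medium. The control culture was treated with normal saline according to its description and the series design, but with bovine serum albumin (BSA) according to its title. For the control, the sample records give neither an exposure time nor a time in serum-free medium. Each culture was measured on 1 Affymetrix Mouse Genome 430 2.0 array, so each group had 1 array, no test was possible, and no value has a replicate error.

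The IL-6 family signals through gp130, the receptor chain encoded by Il6st. IL-6 and IL-11 first bind their own receptor chain and then engage gp130, whereas LIF joins the LIF receptor chain (Lifr) to gp130. Receptor-bound JAK kinases then phosphorylate STAT3, and STAT3 switches on Socs3, whose product binds gp130 and ends the signal. In the colon this pathway is known for supporting epithelial survival and inflammation-linked tumours.

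Values are deposited MAS5 signals, a linear brightness per probe set. Signals under the floor, 76.0 (the median of all signals on the 3 arrays), were set to the floor before log2 ratios were taken. The compared set held the 11134 genes whose brightest probe set had a geometric mean signal above the floor. Of the 9 measured family genes, 6 were compared (Lif, Clcf1, Il6st, Lifr, Stat3 and Socs3), while Il6, Il11 and Osmr lay too low. Of the 24 probe sets, 11 were above the floor on all 3 arrays and 10 on none. Array medians lay between 73.8 and 78.7. Against control, the median log2 ratio of the 18 hybridization spike-ins was 0.019 for S100a8 and −0.013 for S100a9, while that of the 24 poly-A spike-ins, which enter before labelling, was 0.12 and 0.28.

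Among the cell type markers, the epithelial keratin gene Krt18 was bright, with 1032 on the S100a8 array, 1236 on that of S100a9 and 1447 on that of the control. The adhesion gene Cdh1, the keratin gene Krt8 and the villin gene Vil1 were below the floor on all 3 arrays, and 5 of the 8 epithelial markers were so. Some fibroblast-type matrix genes were present, with Col1a2 at 7385, 7839 and 7467, while 2 of the 8 fibroblast markers, Postn and Thy1, were below the floor on all 3 arrays. Of the 10 macrophage and granulocyte markers, 5 were below the floor on all arrays, including the leukocyte gene Ptprc and the macrophage gene Adgre1. The other 5 were above it on all arrays, among them Cd68 (422, 396 and 273) and Csf1r (370, 313 and 267).

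**Figure D1:**
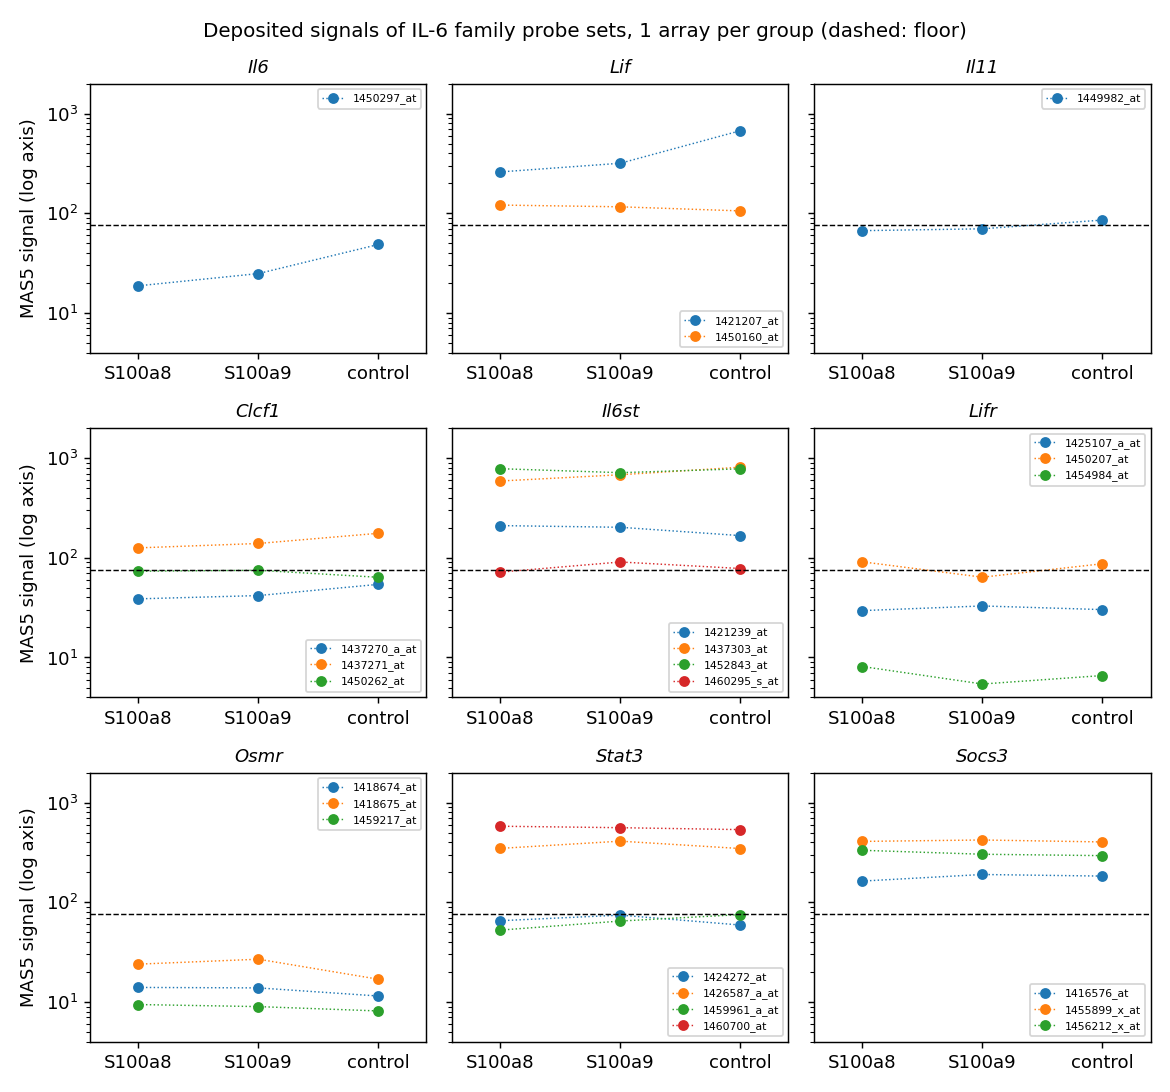
MAS5 signals (log axis) of the 24 probe sets of 9 IL-6 family genes on the S100a8, S100a9 and control arrays, 1 panel per gene and 1 colour per probe set; the dashed line is the floor (76.0) and dotted lines only join values of 1 probe set. Lif probe set 1421207_at was lower on both treated arrays (260.2 and 318) than on the control array (675), while Lif probe set 1450160_at was slightly higher there (121 and 116, against 106), and all 3 Osmr probe sets lay under the floor.

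Among the 6 compared family genes, Lif had the largest difference from control. LIF is a cytokine that maintains stem cell states in mouse cells and acts on tumour and stromal cells. Its brighter probe set, 1421207_at, had signals of 260.2 with S100a8 and 318 with S100a9, against 675 in the control. The S100a8 signal was thus 2.59-fold lower and the S100a9 signal 2.12-fold lower (log2 ratios of −1.37 and −1.09). Ordered from the lowest ratio, Lif stood at place 13 of the 11134 compared genes with S100a8 and at place 10 with S100a9. Because these are bulk cultures, fewer expressing cells and less RNA per cell cannot be told apart.

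The second Lif probe set did not show this difference. Probe set 1450160_at, annotated to the same sequence record, had signals of 121 with S100a8 and 116 with S100a9, against 106 in the control, or log2 ratios of 0.19 and 0.14. The mean over both probe sets was −0.59 ± 1.11 with S100a8 and −0.47 ± 0.86 with S100a9 (SD over 2 probe sets, which are not replicate cultures). The low Lif value therefore rested on 1 of its 2 probe sets. Splits of this kind were also seen in other genes with low ratios. Of the genes at least 2-fold lower with S100a8, 9 had a further probe set above the floor on all arrays. It was lower in 5, of which 4 were at least 2-fold lower, and higher in 4. With S100a9 there were 6 such genes, with the further probe set lower in 3, 1 of them at least 2-fold, and higher in 3. Lif itself is counted among the genes with a higher further probe set in both comparisons.

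The stretches just upstream of the annotated starts of Lif, of Il6 and of Socs3 are shown because these are the compared ligand gene with the largest difference, the best-known inflammatory ligand gene of the family and the STAT3 feedback gene. Each is 250 bases, 5′ to 3′ on the gene's strand, from RefSeq (build GRCm38.p6), with Lif at chr11:4257318-4257567 (plus strand), Il6 at chr5:30012864-30013113 (plus strand) and Socs3 at chr11:117969367-117969616 (minus strand). Capitals mark matches, on either strand, to GGANTTTCC (NF-kB), TTCNNNGAA (STAT), TTGNGCAA (C/EBP) or TGANTCA (AP-1). No match overlaps another.
Lif: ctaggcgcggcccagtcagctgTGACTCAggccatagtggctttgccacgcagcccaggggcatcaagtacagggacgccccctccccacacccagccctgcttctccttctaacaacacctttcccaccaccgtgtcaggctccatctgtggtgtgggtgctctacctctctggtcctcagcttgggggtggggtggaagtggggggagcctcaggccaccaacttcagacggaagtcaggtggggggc
Il6: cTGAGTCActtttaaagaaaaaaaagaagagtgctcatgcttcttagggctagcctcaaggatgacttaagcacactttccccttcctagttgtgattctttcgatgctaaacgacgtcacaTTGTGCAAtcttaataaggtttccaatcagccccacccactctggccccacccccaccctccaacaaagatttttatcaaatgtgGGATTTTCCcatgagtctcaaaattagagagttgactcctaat
Socs3: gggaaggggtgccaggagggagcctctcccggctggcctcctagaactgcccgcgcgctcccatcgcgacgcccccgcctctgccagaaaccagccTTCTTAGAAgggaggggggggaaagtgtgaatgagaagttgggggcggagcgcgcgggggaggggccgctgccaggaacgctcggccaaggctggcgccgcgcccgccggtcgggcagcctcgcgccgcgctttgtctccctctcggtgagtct

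The Lif stretch held 1 match, to the AP-1 letters (TGACTCA), between bases −228 and −222 from the start. The Il6 stretch held 3, with the NF-kB letters GGATTTTCC at −43 to −35, the C/EBP letters TTGTGCAA at −128 to −121 and the AP-1 letters TGAGTCA at −249 to −243. The Socs3 stretch held 1 match to the STAT letters (TTCTTAGAA) at −154 to −146. Over 32851 RefSeq promoter stretches of the same length, 1.07% held the NF-kB letters, 7.02% the STAT letters, 2.61% the C/EBP letters and 6.75% the AP-1 letters. A match is a run of letters and not a measured binding site.

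Clcf1 was the other ligand gene that was compared. Its product, cardiotrophin-like cytokine factor 1, is secreted with a partner and acts through a receptor that holds gp130 and the LIF receptor chain. Probe set 1437271_at had signals of 126 with S100a8 and 139 with S100a9, against 176 in the control. Both treated arrays were lower, by 1.40-fold with S100a8 and 1.27-fold with S100a9 (log2 ratios of −0.49 and −0.34). Of all compared genes, 3.28% had a lower ratio than Clcf1 with S100a8 and 4.45% with S100a9. Its other probe sets were below the floor on every array, 1 of them lower on the treated arrays (38.8 and 41.8, against 54.2 in the control) and 1 higher (73.4 and 75.0, against 63.8).

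The remaining ligand genes were too dim for a ratio between arrays. Il6, the founding inflammatory cytokine of the family, had a single probe set with signals of 18.7 with S100a8 and 24.9 with S100a9, against 48.7 in the control. All 3 Il6 signals lay under the floor, so no fold is given. Il11, a cytokine made by stromal and tumour cells, had signals of 67.0 with S100a8 and 69.9 with S100a9, both under the floor, against 85.6 in the control. Its treated signals were at least 1.13-fold lower than control, and its mean was too low for the gene to enter the counts.

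Il6st, the shared gp130 chain, was well above the floor but its probe sets did not go one way. The brightest, 1452843_at, had signals of 783 with S100a8 and 715 with S100a9, against 781 in the control. Probe set 1437303_at was lower on the treated arrays, with 589.7 and 681 against 811. Probe set 1421239_at was higher on them, with 210.5 and 202 against 167. Over these 3 probe sets the mean log2 ratio was −0.041 ± 0.40 with S100a8 and −0.034 ± 0.28 with S100a9 (SD over probe sets), so the spread between probe sets exceeded the mean difference. The fourth, 1460295_s_at, lay close to the floor (71.9, 90.8 and 78.1).

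Lifr and Osmr, whose products pair with gp130, were dim or below the floor. Lifr, the LIF receptor chain, had 1 probe set near the floor, with signals of 91.1 with S100a8 and 63.9 with S100a9, against 87.2 in the control, and both others lay far below it. The S100a9 signal was at least 1.15-fold lower than control, and the log2 ratio of S100a8 was 0.064. Osmr, which pairs with gp130 to bind oncostatin M, had 3 probe sets with signals between 8.13 and 26.9, all under the floor. These signals therefore do not show whether Osmr differed.

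Stat3, which carries the signal to the nucleus, was close to control on its brighter probe sets. Probe set 1460700_at had signals of 579.8 with S100a8 and 561 with S100a9, against 536 in the control (log2 ratios of 0.11 and 0.064). Probe set 1426587_a_at had 348 and 411, against 346 (0.0055 and 0.25). Over both, the mean log2 ratio was 0.059 ± 0.076 with S100a8 and 0.16 ± 0.13 with S100a9 (SD over 2 probe sets). The other 2 Stat3 probe sets were below the floor on every array. Probe set 1424272_at had 65.4 and 74.4, against 59.1 in the control, and 1459961_a_at had 52.6 and 64.9, against 75.3.

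Socs3, the STAT3-induced inhibitor of gp130, was also close to control. Probe set 1455899_x_at had signals of 408 with S100a8 and 422 with S100a9, against 403 in the control. Probe set 1456212_x_at had 333 and 304, against 294, and 1416576_at had 163 and 190.2, against 183. Over the 3 probe sets the mean log2 ratio was 0.010 ± 0.17 with S100a8 and 0.055 ± 0.0097 with S100a9 (SD over probe sets). The S100a8 ratios lay on both sides of 0, and the S100a9 ratios were all between 0.046 and 0.065.

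**Figure D2:**
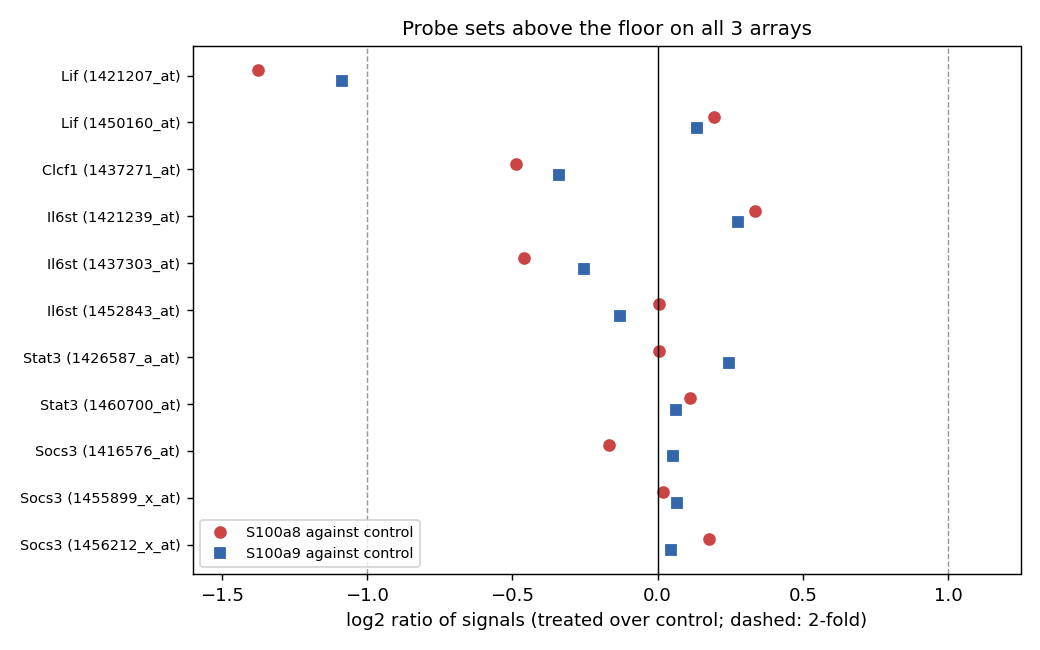
Log2 ratios of signal, treated over control, for the 11 probe sets above the floor on all 3 arrays (circles S100a8, squares S100a9; 1 array per group; dashed lines mark 2-fold). Lif 1421207_at was the 1 probe set beyond 2-fold (−1.37 and −1.09), and the probe sets of Il6st lay on both sides of 0.

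Counted over genes, 1 of the 6 compared family genes, Lif, was at least 2-fold lower with S100a8, where 0.287% of all compared genes were, and 0 were at least 2-fold higher, against 0.0449% of all genes. With S100a9 it was again Lif alone that was at least 2-fold lower (0.144% of all genes), and 0 were at least 2-fold higher (0.00898%). At 1.5-fold the family counts did not change, where 1.91% of all genes were lower and 1.13% higher by that size with S100a8, and 0.853% lower and 0.251% higher with S100a9. Both comparisons use the same control array. The family's median log2 ratio was 0.011 with S100a8 (2 lower, 4 higher) and −0.16 with S100a9 (4 lower, 2 higher). Over all compared genes the median was 0.012 with S100a8 and 0.0045 with S100a9, with the central 95% of genes between −0.54 and 0.49 and between −0.41 and 0.35. Of the family, only Lif lay outside these ranges.

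**Figure D3:**
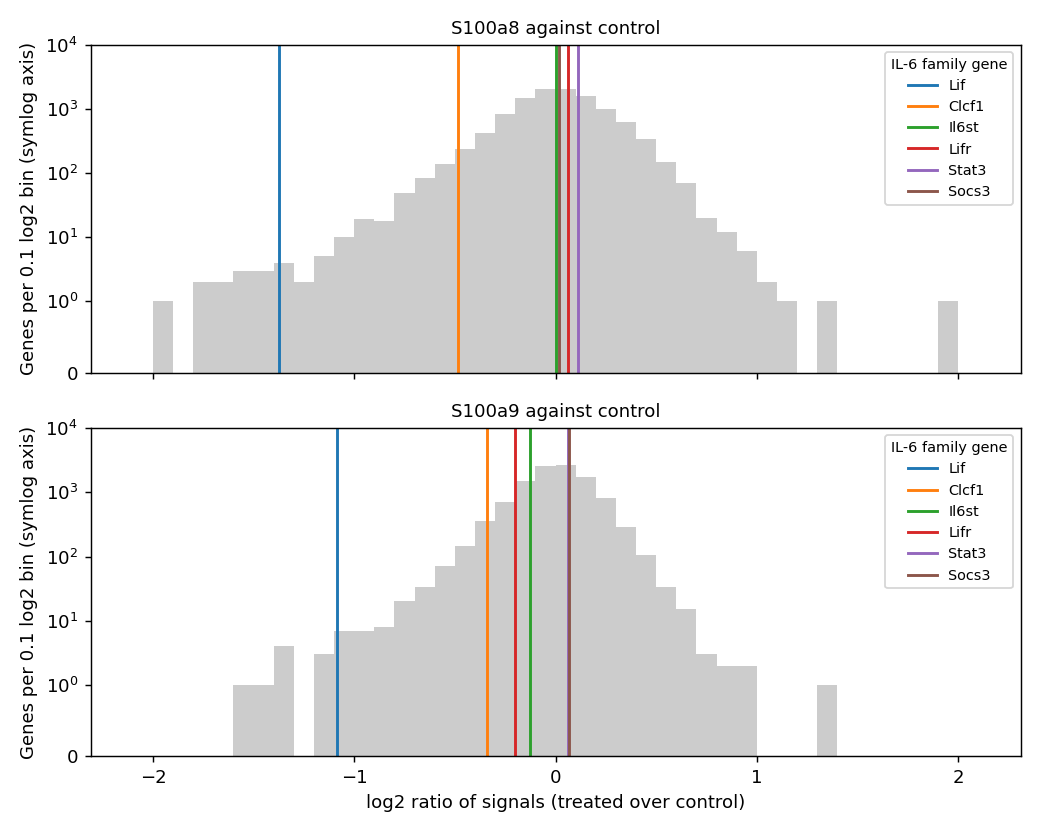
Number of compared genes per 0.1 bin of log2 ratio, treated over control (11134 genes; the vertical axis is linear below 1 and logarithmic above), with coloured lines at the 6 compared family genes. Lif lies in the lower tail in both panels (−1.37 and −1.09), Clcf1 at −0.49 and −0.34, and Il6st, Lifr, Stat3 and Socs3 near the centre.

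Set against each other, the S100a9 and S100a8 arrays differed little for the family. On probe set 1421207_at, Lif was 1.22-fold higher with S100a9 than with S100a8 (318 and 260.2). A ratio as high or higher was seen for 328 of the compared genes. The other Lif probe set, 1450160_at, was 1.04-fold lower with S100a9 (116 and 121). The Lifr signal with S100a9 lay below the floor and was at least 1.20-fold lower than with S100a8, a bound that does not rank it against Lif. With S100a9 against S100a8, 0 of the 6 family genes were 2-fold or more apart, where 0.018% of all compared genes were lower and 0% higher by that size. At 1.5-fold, too, 0 of 6 family genes stood apart in either direction, where 1.01% of all compared genes were lower by that size and 0.0988% higher with S100a9.

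Outside the 10 genes, other ligand genes of the family were mostly dim. Of 9 listed, 5 had a probe set of their own and 1 was compared. That gene, Ctf1 (cardiotrophin 1), had signals of 104 with S100a8 and 105 with S100a9, against 108 in the control. Osm, encoding oncostatin M, had 72.9, 67.4 and 61.2 and lay under the floor. Among receptor genes, Il6ra, which binds IL-6 itself, had log2 ratios of −0.23 and −0.044 on the brighter of its probe sets (434 with S100a8 and 495 with S100a9, against 510.0). Cntfr, the ciliary neurotrophic factor receptor chain, was higher with S100a8 (203, against 142 in the control) and level with S100a9 (144).

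The JAK and STAT genes and gp130 adaptors had no common direction. With S100a8, 7 of 14 compared genes were lower and 7 higher, and the median log2 ratio was −0.0014. With S100a9, 10 were lower and 4 higher, with a median of −0.076. Of all compared genes, 47.5% were lower with S100a8 and 48.1% with S100a9. Stat2, a transcription factor of interferon signalling, and Tyk2, a kinase of both interferon receptors and gp130, were lowest. Stat2 had 104 with S100a8 and 146 with S100a9, against 186 in the control, and Tyk2 had 229 and 258 against 376. On the brightest probe sets, the log2 ratios of the other gp130-associated kinase genes were 0.040 and 0.16 for Jak1 and −0.076 and −0.21 for Jak2, against −0.71 and −0.55 for Tyk2. Further Jak1 probe sets were at −0.15 and −0.16 and at −0.028 and 0.11. Another Jak2 probe set was at −0.31 and −0.060, and another Tyk2 probe set was below the floor on all arrays. The list of inhibitors of cytokine signalling, which also holds the protease genes Adam10 and Adam17, was mixed too (8 of 16 lower with S100a8 and 6 of 16 with S100a9). In it 0 of 16 were beyond 1.5-fold, where 1.91% of all compared genes were lower and 1.13% higher by that size with S100a8. With S100a9 these shares were 0.853% and 0.251%. Socs1 was at 0.012 and 0.14. Adam17, the protease that sheds the IL-6 receptor, had log2 ratios of −0.36 and −0.28.

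Genes listed as STAT3 targets were spread on both sides of control. With S100a8, 14 of 24 compared genes were lower and 10 higher (median −0.062), and with S100a9 17 were lower and 7 higher (median −0.14), where 47.5% and 48.1% of all compared genes were lower. Those at least 1.5-fold lower with S100a8 were 4: Fos (−1.18), the acute-phase gene Saa3 (−0.68), the stress gene Ier3 (−0.63) and the kinase gene Pim1 (−0.60), the last named after its value was seen, where 1.91% of all compared genes were lower by that size. With S100a9, 0 of 24 were beyond 1.5-fold. Lcn2, encoding an iron-carrier binding protein, was above control with either protein (702 with S100a8 and 699.95 with S100a9, against 502), and so was the protease inhibitor gene Timp1 (2595 and 2673, against 2032).

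Genes that regulate Il6 transcription or the Il6 mRNA were mostly lower. This list was chosen with earlier results of these data known, so its counts are a description and not independent support. Of 13 compared, 12 were lower with S100a8 (median −0.70) and 8 of these by at least 1.5-fold. With S100a9 all 13 were lower (median −0.35), 5 of them by at least 1.5-fold. Of all compared genes, 47.5% were lower with S100a8 and 1.91% by at least 1.5-fold, and with S100a9 these shares were 48.1% and 0.853%. Relb, an NF-kB subunit gene, had 500.1 with S100a8 and 598 with S100a9, against 1035 in the control. Zc3h12a, whose product Regnase-1 cleaves Il6 mRNA, had 205 and 223 against 377. Arid5a, whose product protects Il6 mRNA from that cleavage, had 226 and 245 against 369.9. Factors with opposite roles on the same transcript were thus both lower on the treated arrays. Nfkbiz, a nuclear cofactor needed for Il6 transcription in macrophages, was lower on each of its 3 probe sets, with log2 ratios from −1.33 to −0.21 with S100a8 and from −1.12 to −0.38 with S100a9. The C/EBP gene Cebpb was at −0.24 and −0.15, and Cebpd at 0.18 and −0.17.

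**Figure D4:**
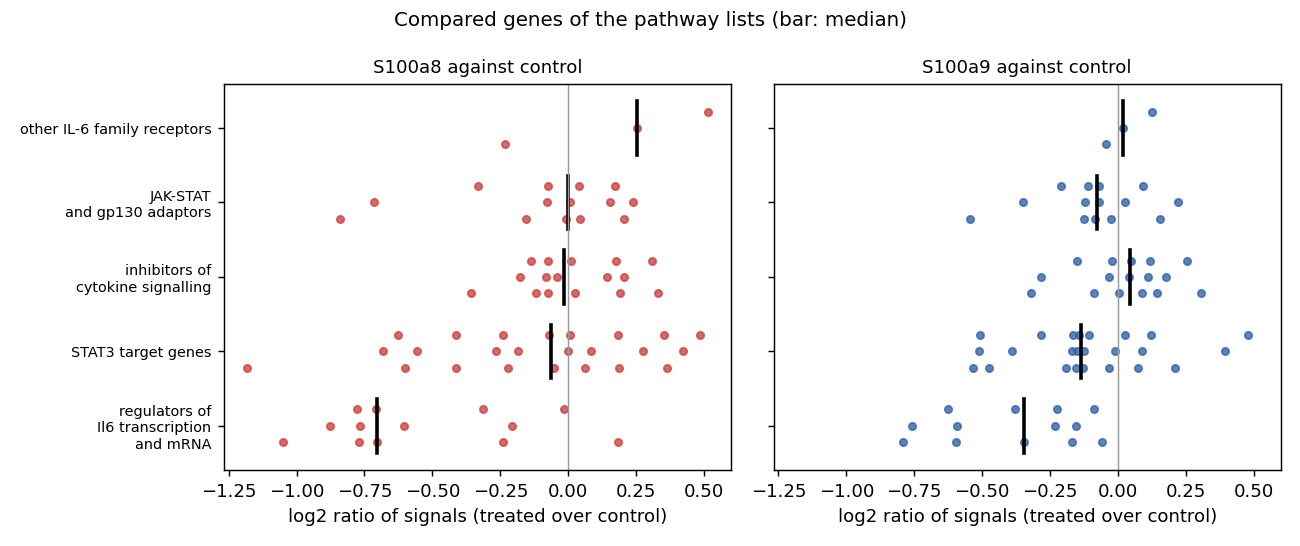
Log2 ratios of signal, treated over control, for the compared genes of 5 pathway lists (points are genes, spread vertically for legibility; bars are medians). The regulators of Il6 lie furthest left (medians −0.70 with S100a8 and −0.35 with S100a9), while the JAK-STAT genes and the inhibitors centre near 0. The lists were chosen with earlier results of these data known.

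By distance in the plane of the 2 log2 ratios against control, over 10713 genes above the floor on all 3 arrays, the genes most like Lif were Hes1, Acod1 and Rsad2. Hes1, a Notch-responsive repressor, had 137 with S100a8 and 183 with S100a9, against 363 in the control, at a distance of 0.10. Acod1, which makes itaconate, had 106 and 143 against 293 (0.11), and Rsad2, the antiviral protein viperin, 251 and 292 against 604 (0.12). This likeness rests on 3 arrays and on Lif probe set 1421207_at alone. The other Lif probe set, 1450160_at, had log2 ratios of 0.19 and 0.14 and was not used for it.

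Markers of other cell types also differed between the arrays. The lists hold few compared genes, and 52.5% of all compared genes were higher with S100a8 and 51.2% with S100a9, while 47.5% and 48.1% were lower. The summed signal of the 10 macrophage and granulocyte markers was 1446 with S100a8 and 1327 with S100a9, against 1069 in the control. Of its compared genes, 5 of 5 were higher with S100a8 and 4 of 5 with S100a9. The T and B cell markers (3 compared genes, median log2 ratios of 0.36 and 0.012) were higher in 3 and 2, and the endothelial markers (2 compared genes, medians of 0.27 and 0.085) in 2 and 1. The summed signal was 1092 and 898, against 973 in the control, for the 4 measured T and B cell markers and 351 and 308, against 294, for the 5 endothelial ones. Most of the T and B cell sum came from Cd3e, with 759 and 613, against 686 in the control. The summed signal of the 8 fibroblast markers was 10834 and 11888, against 12077. Most of it came from Col1a2, with 7385 and 7839, against 7467. All 6 compared fibroblast markers were lower with S100a8 and 5 of 6 with S100a9, among them the growth factor receptor gene Pdgfrb (−0.92 and −0.76). The 8 epithelial markers summed to 1463 with S100a8 and 1615 with S100a9, against 1809 in the control. Of 3 compared epithelial genes, 2 were higher with S100a8 and 1 with S100a9. The part of these lists in the Lif and Clcf1 differences was not tested.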

How the data were processed

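RNA of 3 CT26.WT cultures was measured on 1 array each. The deposited intensities are linear signals per probe set, for which the submitters' processing notes name MAS5, with its version and scaling not given in the sources used here. In all there were 45101 probe sets, 64 of them controls, and their scale was kept. Genes were named from the platform annotation, which can be old: 34958 probe sets had 1 symbol and 932 several, which were left out. MAS5 subtracts mismatch signal, so dim values are noisy, and scaling to a common level hides changes in total RNA.

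Values under the 50th percentile (76.0) were set to it, log2 was taken, and each gene was represented by its brightest probe set. Python 3.11.15, numpy 2.4.6 and pandas 2.3.3 were used, and the code was tested on simulated data. Log2 ratios and folds were computed here. With 1 array per group the number of arrays limits the precision, and counts past 2-fold or 1.5-fold are descriptions. A fold with 1 array at the floor is a bound. Named were all probe sets of the 10 genes, up to 2 genes at either end of each list and comparison, genes set beside a family gene for their role, cell type markers and the 3 genes nearest to any family gene 2-fold from control. The nearest genes to Il6 were not sought, since it lay under the floor. The genes and lists were chosen with earlier results of these data known. RefSeq promoter stretches were matched by symbol.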

Additional observations from a re-analysis of the deposited data

How the results depend on the processing

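With 10 other settings (median, quantile or brightness-binned centring, a floor at the 30th or the 65th percentile, no floor with a pseudocount of 1 or 16, no filter on dim genes, the mean of all probe sets, and probe sets without shared endings first), Lif kept its direction against control in each. With the mean of its probe sets, Lif was at −0.59 with S100a8 and −0.47 with S100a9, and the count of family genes at least 2-fold from control was 0 for S100a8 and 0 for S100a9, in place of 1 each. The other 9 all read Lif probe set 1421207_at. There Lif ranged from −1.37 to −1.32 with S100a8 and from −1.10 to −1.05 with S100a9. No setting read probe set 1450160_at alone, where the log2 ratios were 0.19 and 0.14. The kept direction therefore says nothing about the disagreement between the 2 Lif probe sets. Of 174 values of single family genes under these settings, 159 moved by less than the robust spread of all genes and 15 moved by more. A change of sign was counted only for ratios of at least 2-fold, which only Lif against control had, and that count was 0. Smaller ratios of Il6st, Lifr, Stat3 and Socs3 did change sign under some settings. Of the 15, 8 were of the dim gene Lifr. Clcf1 was at −0.16 and −0.11 with the mean of its probe sets. Over all genes, the 5 at least 2-fold higher with S100a8 became 3 with the floor at the 65th percentile or a pseudocount of 16, and the 1 with S100a9 became 3 with the floor at the 30th percentile. Median centring gave 7 higher with S100a8. The 2 genes at least 2-fold lower with S100a9 than with S100a8 became 5 with median centring or the floor at the 30th percentile, 1 with a pseudocount of 16 or the mean of all probe sets, and 0 when the 65th percentile was the floor. No paired analysis was possible because each group has 1 array, and for the same reason no array could be left out.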
